A study of Caenorhabditis elegans with 2 samples.

Results

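Oxidative phosphorylation is the work of 5 protein complexes of the inner mitochondrial membrane, and their nuclear-encoded genes are described here by the binding of ZTF-18 at their promoters in Caenorhabditis elegans. The genes were chosen by name, as protein-coding genes on nuclear chromosomes whose symbol begins with nduf-, nuo-, cox-, cyc-, ucr-, sdha-, sdhb-, sdhd-, atp-, asb- or asg- and a digit, together with mev-1, gas-1 and isp-1. There were 51 of them among 19973 protein-coding nuclear genes, 43 for subunits or cytochrome c and 8 for proteins that assemble complex IV. The naming rule used no measured value, but the genes were proposed with earlier results of these data known. The names miss 19 complex I genes that now carry symbols beginning with ndua-, ndub-, nduc-, ndus- or nduv-, and these are given apart. The worms were hermaphrodite young adults of strain OP496, a stable transgenic line in which ZTF-18, a zinc finger protein, ends in a GFP-FLAG tag. They were collected 64 hours after synchronization by bleaching and L1 starvation. The tag was used for the immunoprecipitation, with an anti-GFP antibody per the sample description, though the antibody field of the labels reads ztf-18. There was 1 group of 2 biological replicates, made from whole animals, so the cell types that carried the signal cannot be told apart, and all animals carried the tagged protein. The control libraries were not analysed here.

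Electrons enter the respiratory chain from NADH at complex I and from succinate at complex II, pass through ubiquinone to complex III and by the small carrier cytochrome c to complex IV, where oxygen is reduced. Complexes I, III and IV pump protons, and complex V, the ATP synthase, uses the gradient to make ATP. In C. elegans, mutations in several of these genes, among them mev-1, gas-1, isp-1 and nuo-6, are known to alter lifespan or sensitivity to oxidative stress, and the germ line and early embryo depend on mitochondria supplied by the mother.

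The measure of binding was the peak signal that the authors deposited, a value per peak on a scale that is not given in the sources used here and that carries no error of its own. The thresholded list held 2465 peaks, 2449 of them nuclear, with signals from 93.6 to 11118. Its label gives it as the optimal set after thresholding by IDR, the irreproducible discovery rate between replicates. It was identical to the 2465 strongest of 30000 peaks in a relaxed list pooled from both replicates. The label of that relaxed list reads peaks and background as input for IDR. Summits found in the relaxed list alone can thus be background, and their signals are not calls of binding. The replicates' own relaxed lists held 26104 and 27612 peaks. Calls without a replicate were made on the 2465 strongest peaks of the other replicate's own list, and no peaks were called anew. Read depth is unknown from these files, so no interval can be set on a signal. A gene was called bound when a thresholded summit, the base of highest signal in a peak, lay in its promoter window, the stretch between 1000 bp before and 200 bp after the annotated 5′ end. No test was run, because there was no second group to compare and the genes were proposed with earlier results of these data known.

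ZTF-18 was bound at 24 of the 51 genes (47.1%), where 8.18% of all protein-coding genes were bound. All 24 encode subunits or cytochrome c, 24 of 43 (55.8%), and 0 of the 8 assembly genes were bound. The strongest signals lay at mev-1 (3541), cyc-1 (3076), nduf-11 (2877), ucr-2.2 (2055), sdha-1 (1517) and nuo-2 (1455), genes of complexes I, II and III. These were also the 6 members bound in the upper 250 peaks, which bound 1.46% of all genes. In complexes IV and V the highest signals were 634 at cox-5B and 268 at atp-1. With each summit counted for its nearest 5′ end only, 19 members stayed bound (37.3%), against 6.14% of all genes. In the relaxed list, which by its label includes background, 46 members had a summit in the window (90.2%), against 39.0% of all genes.

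**Figure D1:**
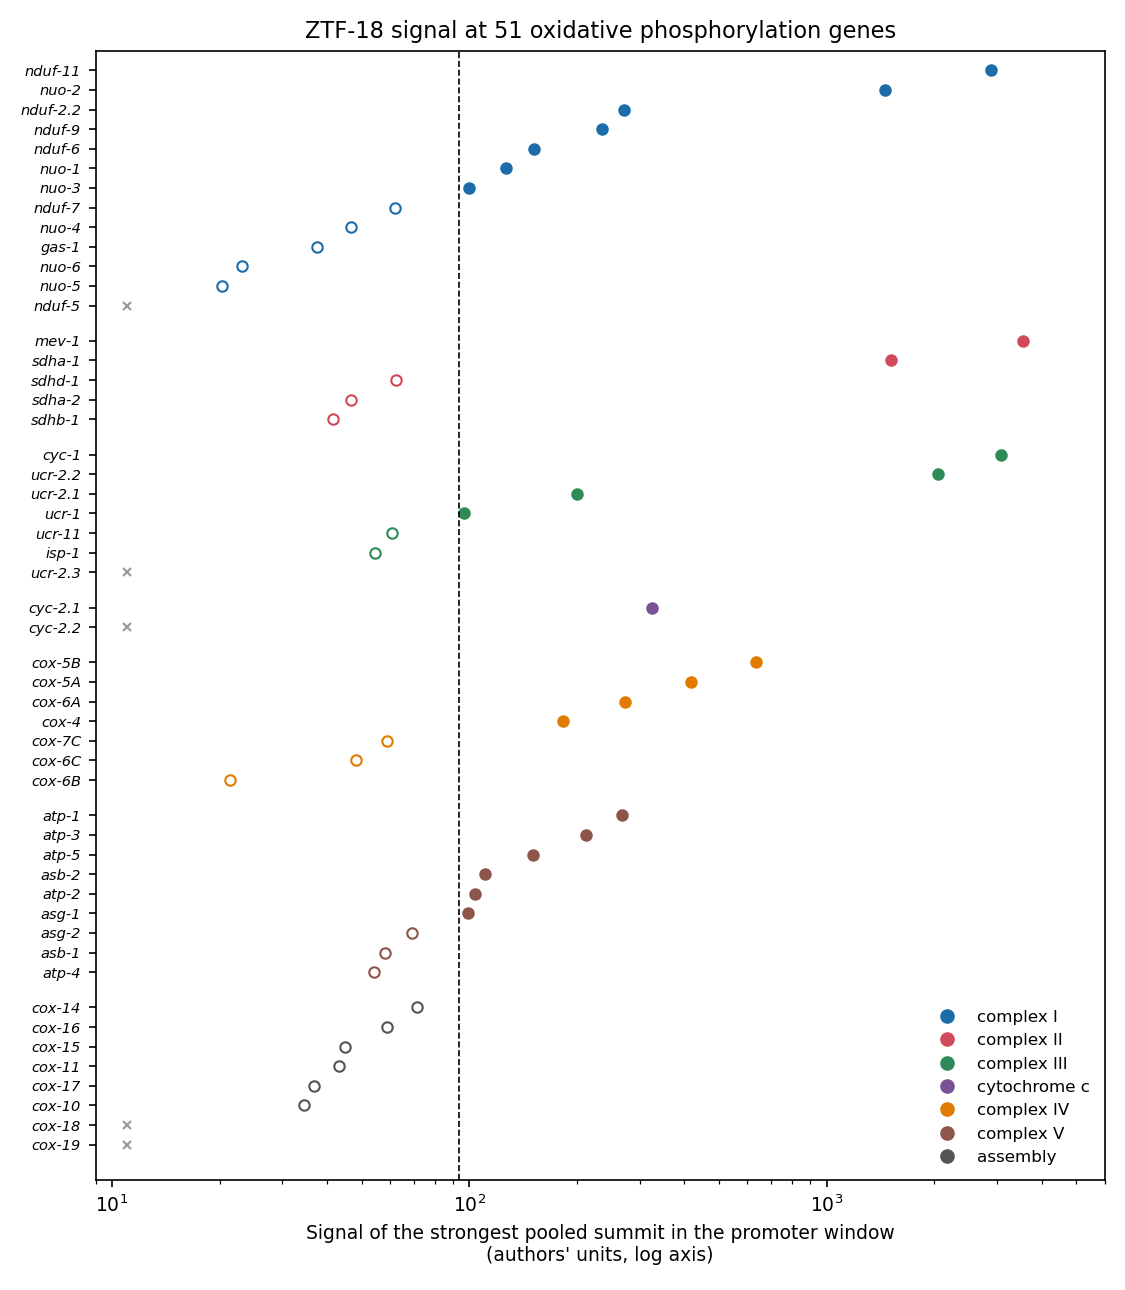
Signal of the strongest pooled summit in the promoter window of each of the 51 genes, in the authors' units on a log axis, grouped by complex. Filled points are thresholded summits, open points are summits of the relaxed list alone, crosses are genes with no relaxed pooled summit, placed at the left edge without a value, and the dashed line marks the lowest thresholded signal, 93.6. The 6 points above 1000 belong to complexes I, II and III, and the 6 filled points of complex V lie between 99.3 and 268.

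The DNA under a few of these summits shows what the strong and the weak sites look like. Each summit with 50 bases on either side was read from the WBcel235 assembly, which is the ce11 build, on the strand of the gene and 5′ to 3′. Capitals mark matches, on either strand, to the word CTGNCGC, described further on. The first 3 windows are from strong sites, the next from a site of middling signal and the last 2 from sites near the threshold.
mev-1 (chrIII:10334092-10334192, + strand): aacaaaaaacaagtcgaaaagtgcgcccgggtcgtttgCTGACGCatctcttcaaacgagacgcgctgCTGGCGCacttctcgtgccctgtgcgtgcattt
nduf-11 (chrII:11345751-11345851, − strand): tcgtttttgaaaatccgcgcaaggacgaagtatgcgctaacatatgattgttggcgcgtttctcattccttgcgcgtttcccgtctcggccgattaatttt
sdha-1 (chrX:8546186-8546286, − strand): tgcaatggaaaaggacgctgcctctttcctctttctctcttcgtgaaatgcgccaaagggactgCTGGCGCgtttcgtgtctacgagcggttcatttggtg
cox-5A (chrIII:12905165-12905265, + strand): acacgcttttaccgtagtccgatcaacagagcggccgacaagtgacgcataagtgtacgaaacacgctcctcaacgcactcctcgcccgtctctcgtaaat
atp-2 (chrIII:5228145-5228245, + strand): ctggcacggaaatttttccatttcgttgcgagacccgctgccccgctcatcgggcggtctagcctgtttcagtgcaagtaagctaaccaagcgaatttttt
ucr-1 (chrIII:5591963-5592063, + strand): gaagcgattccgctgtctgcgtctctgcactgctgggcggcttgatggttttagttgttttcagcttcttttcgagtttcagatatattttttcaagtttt
The mev-1 window holds the word at 2 places and the sdha-1 window at 1, while nduf-11 and cox-5A hold only its last 6 bases, TGNCGC, and atp-2 and ucr-1 hold neither.

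Complex I, the entry point of electrons from NADH, had 7 of 13 genes bound (53.8%), with a median signal of 236 and a range from 99.9 to 2877. The strongest was nduf-11, the counterpart of human NDUFA11, an accessory subunit of the membrane arm. Its peak spanned 11345237 to 11346317 on chromosome II, with the main summit 181 bp upstream of the 5′ end. Signal there was 1767 in replicate 1 (rank 55) and 1172 in replicate 2 (rank 62). A further summit of signal 412 lay 55 bp inside the gene, in a coding exon. Next came nuo-2, the counterpart of the core subunit NDUFS3. Its summit lay 156 bp upstream in a peak from 6531761 to 6532408 on chromosome I, inside the 3′ UTR of the gene before it, T10E9.14. The replicates gave 846 (rank 167) and 628 (rank 162), so both placed nduf-11 and nuo-2 among their strongest peaks.

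The other 5 bound complex I genes had much lower signal. The gene nduf-2.2, a paralog of gas-1, had a signal of 270 at a summit 793 bp upstream. For nduf-9 (NDUFA9 in human) it was 236 at 638 bp upstream, and for nduf-6 (NDUFS6) 152 at 240 bp upstream. The gene nuo-1 encodes the NADH-binding flavoprotein, and its signal was 126 at 228 bp upstream. At nuo-3 (NDUFA6) the signal was 99.9, just above the threshold, with the summit 22 bp downstream in the 5′ UTR. The strongest summits in the replicates were 42.2 (rank 4065), 126 bp downstream, and 57.8 (rank 1678), 19 bp downstream. Without replicate 2 nuo-3 was not bound. The summits of nduf-2.2 and nduf-9 lay outside a window of 500 bp upstream, and that of nduf-2.2 was nearer to dlc-1. Among the unbound genes, nduf-7, a core iron-sulfur subunit gene, had a relaxed signal of 61.8, nuo-4 had 46.6, gas-1 37.5, nuo-6 23.1 and nuo-5 20.4, and nduf-5 had no relaxed summit.

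The complex I genes with symbols beginning with ndua-, ndub-, nduc-, ndus- or nduv-, outside the naming rule, were bound at 6 of 19 (31.6%). They were nduv-3 (signal 1943), ndus-8 (1302), nduc-2 (343), ndua-8 (195), ndua-2 (159) and ndub-8 (111). The next, ndub-3, had a relaxed signal of 92.7, just under the threshold. With these genes added, 13 of 32 complex I genes (40.6%) and 30 of 70 genes in all (42.9%) were bound. Chain subunit genes under still other symbols are counted further on and are not in these totals. The share for complex I thus depends on which symbols are counted.

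Complex II, succinate dehydrogenase, links the chain to the citric acid cycle, and 2 of its 5 genes were bound, both strongly. At mev-1, which encodes the cytochrome b membrane anchor, the signal was 2197 in replicate 1 (rank 34) and 1410 in replicate 2 (rank 45). The peak spanned 10333561 to 10334768 on chromosome III, with its main summit 135 bp upstream of mev-1. That summit also lay 124 bp upstream of jmjd-4, a divergent gene for a JmjC-domain protein, so it belongs to neither gene alone. A further summit of signal 908 lay 66 bp downstream of the mev-1 5′ end in its coding exon. That position is 829 bp upstream of ced-9, the anti-apoptotic Bcl family gene that is known to be transcribed together with mev-1. At sdha-1, the flavoprotein gene, the signal was 826 in replicate 1 (rank 169) and 688 in replicate 2 (rank 146). Its peak spanned 8545964 to 8546522 on chromosome X, with the summit 215 bp upstream and 32 bp from the snoRNA gene D2021.6. Unbound were sdhd-1, the other membrane anchor gene (relaxed signal 62.4), sdha-2 (46.7) and sdhb-1, the iron-sulfur subunit gene (41.6). The strongest sdhd-1 summits differed between replicates, at 24.97 in replicate 1 (rank 9872) and 45.1 in replicate 2 (rank 2418). They lay near the far edge of the window, at −898 and −951 bp from the 5′ end, upstream being negative.

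Complex III, the cytochrome bc complex, had 4 of 7 genes bound (57.1%), with signals from 96.4 to 3076. The gene cyc-1, for cytochrome c1, had 1845 in replicate 1 (rank 50) and 1273 in replicate 2 (rank 51), at a summit 301 bp upstream (chromosome I, 8024070 to 8025149). The gene ucr-2.2, for a core protein, had 1210 (rank 110) and 873 (rank 105), at a summit 220 bp upstream (chromosome X, 15173342 to 15174047). Its paralog ucr-2.1 had a pooled signal of 200.1 at 330 bp upstream, and this summit was closer to nmat-1, a gene of NAD synthesis on the opposite strand, at 56 bp. The gene of the other core protein, ucr-1, had the lowest signal of all bound members, 96.4, with 55.2 in replicate 1 (rank 2702) and 49.9 in replicate 2 (rank 2096), and it was not bound without replicate 2. It was followed below the threshold by ucr-11 (relaxed signal 60.8) and isp-1, the Rieske iron-sulfur protein gene (54.6), while ucr-2.3 had no relaxed summit.

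Cytochrome c is encoded by a pair of genes. At cyc-2.1 the summit lay 150 bp downstream of the 5′ end in an intron of the gene, with a pooled signal of 326, and the replicates gave 189 (rank 492) and 152 (rank 434). It was not bound with a window from 500 bp upstream to 100 bp downstream. The gene lies 111 bp behind rpl-20 on the same strand, and rpl-20, a ribosomal protein gene, was bound at its own 5′ end with a signal of 1792. At cyc-2.2 there was no relaxed summit.

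Complex IV, cytochrome c oxidase, had 4 of 7 nuclear subunit genes bound (57.1%), with signals from 183 to 634 and a median of 345. At cox-5B the summit lay 13 bp upstream of the 5′ end, and the replicates gave 363 (rank 289) and 270.5 (rank 276). At cox-5A it lay 276 bp upstream (chromosome III, 12905051 to 12905357), and the replicates gave 229 (rank 401) and 189 (rank 352). A weaker summit, of signal 96.2, lay 76 bp upstream of cox-5A. The summit of cox-6A (272) lay 801 bp upstream, 25 bp from the snRNA gene F54D8.7, and that of cox-4 (183) 395 bp upstream. With the 500 bp window cox-6A was not bound. The unbound subunit genes had relaxed signals of 58.8 (cox-7C), 48.3 (cox-6C) and 21.3 (cox-6B).

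Complex V, the ATP synthase, had 6 of 9 genes bound (66.7%) at low signals, with a median of 130 and a highest value of 268. This count depended on the list used, with 4 bound without replicate 1, 5 without replicate 2 and 3 where a top peak of both was required. The catalytic head was represented by atp-1, the alpha subunit gene. Its summit lay 8 bp downstream in the 5′ UTR, and the replicates gave 159 (rank 586) and 112 (rank 627). The beta subunit gene atp-2 had a pooled signal of 104 at 222 bp upstream. The strongest summit in the window was elsewhere in replicate 1, 70.9 (rank 1855) at −21 bp from the 5′ end, upstream being negative. In replicate 2 it was 44.4 (rank 2485) at −216 bp. Without replicate 1 atp-2 was not bound, its rank in replicate 2 lying just outside the cut of 2465. Of the stator genes, atp-3, for the oligomycin sensitivity protein, had 136.5 in replicate 1 (rank 719) and 77.1 in replicate 2 (rank 1106), at a summit 63 bp upstream. The gene atp-5 had a pooled signal of 150.5, and asb-2, a subunit b gene, 110. At asb-2 the replicates gave 49.5 (rank 3177) and 65.4 (rank 1429), and it was not bound without replicate 2. The membrane subunit gene asg-1 had a pooled signal of 99.3, but the replicates differed. Replicate 1 gave 84.0 (rank 1460), replicate 2 gave 27.6 (rank 5625), and asg-1 was not bound without replicate 1. Its summit lay in the 5′ UTR of the divergent gene mrps-15, 16 bp inside it and 340 bp upstream of asg-1. The unbound genes were asg-2, asb-1 and atp-4, with relaxed signals of 69.1, 58.1 and 54.2.

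None of the 8 genes for complex IV assembly was bound. They cover heme A synthesis (cox-10 and cox-15), copper delivery (cox-11 and cox-17), membrane insertion (cox-18) and further assembly steps (cox-14, cox-16 and cox-19). The relaxed signals were 71.5 at cox-14, the strongest unbound member, then 59.0 at cox-16, 44.8 at cox-15, 43.2 at cox-11, 36.8 at cox-17 and 34.5 at cox-10. In the relaxed pooled list cox-18 and cox-19 had no summit. With so few genes and a share of 8.18% over all genes, the count of 0 is not evidence of a lower share.

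Several of the proteins have paralogs. In these pairs the first gene was bound and the other was not: sdha-1 and sdha-2 (1517 against a relaxed 46.7), cyc-2.1 and cyc-2.2 (326 against no summit), asb-2 and asb-1 (110 against 58.1), asg-1 and asg-2 (99.3 against 69.1), and nduf-2.2 and gas-1 (270 against 37.5). Of the ucr-2 genes, ucr-2.2 and ucr-2.1 were bound and ucr-2.3 was not. Values for asg-1 and asg-2 lie close to either side of the threshold, so that contrast is small. The calls of asg-1 and asb-2 were each lost without 1 replicate, and that of nduf-2.2 with the nearest 5′ end or the 500 bp window. The sdha-1 and cyc-2.1 contrasts are wide in signal, with sdha-2 far below the threshold and no relaxed summit at cyc-2.2. The call of cyc-2.1 was, however, also lost with the 500 bp window.

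The replicates ordered the strong members alike except for nuo-2 and sdha-1, which changed places. Some weak members had ranks far apart, and no measure of rank agreement was computed. All 24 bound members had a summit in the window in each replicate. The summit ranked within the 2465 strongest peaks of the replicate's own list for 21 of 24 in replicate 1 and 22 of 24 in replicate 2. Of the 27 unbound members, 19 had a summit in replicate 1 and 23 in replicate 2, and the summit was within the 2465 strongest for 0 and 1 of them, the latter being sdhd-1. A top peak of both replicates overlapped the thresholded peak for 19 of 24 bound members (79.2%) and for 75.9% of all bound genes. The exceptions were nuo-3, ucr-1, asb-2, atp-2 and asg-1, all with pooled signals of 110 or less. The thresholded list was itself derived from both replicates and was identical to the strongest pooled peaks, so these counts are not independent of it.

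**Figure D2:**
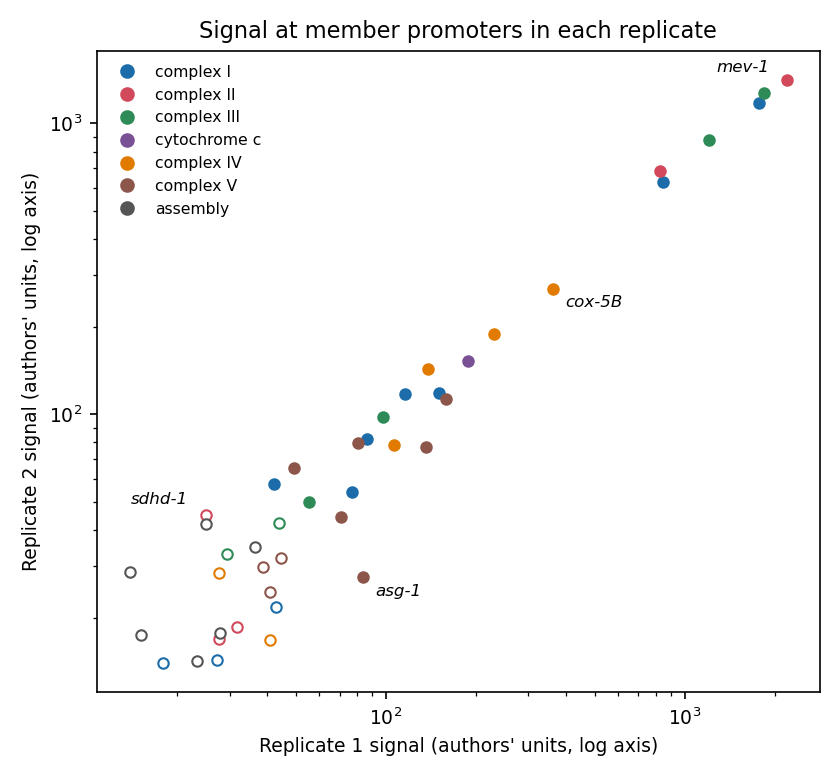
Signal of the strongest summit in the promoter window in replicate 1 and in replicate 2, in the authors' units on log axes, 1 point per gene with a summit in both. Filled points are bound genes and open points unbound ones. The 6 strong members lie at the upper right, and asg-1 (84.0 and 27.6) and sdhd-1 (24.97 and 45.1) stand off the diagonal in opposite directions.

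Most member summits lay close upstream of the gene. Their median position was 225 bp upstream of the 5′ end, and 250 bp for all bound genes, and 16 of 24 (66.7%) lay from 100 to 400 bp upstream, against 51.0% of all bound genes. In 3 members (12.5%), nuo-3, atp-1 and cyc-2.1, the strongest summit lay downstream of the 5′ end, against 5.63% of all bound genes. Median signal was 252 for the bound members and 161 for all bound genes, and 18 of 24 (75%) had a signal over 150, against 54.7%. Of the bound members 7 (29.2%) had a peak exactly 510 bp wide, the width of 1433 of the 2465 peaks, against 55.5% of all bound genes. None had a tRNA gene within 150 bp of its strongest summit, as 5.08% of all bound genes did. A small RNA gene of another class lay that close in 3 members (12.5%), against 8.45% of all bound genes. These were sdha-1 and cox-6A, named above, and nduf-9, whose summit lay inside the miRNA gene cel-mir-4936. Which of the neighbouring genes a summit serves was not tested.

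**Figure D3:**
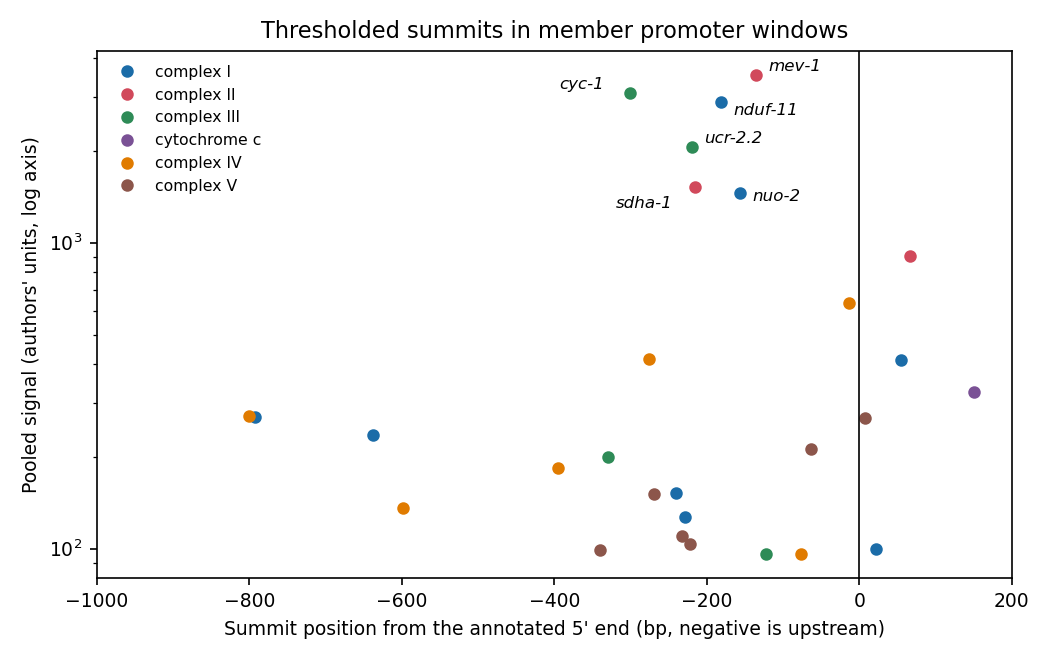
Position of every thresholded summit in the member windows, in bp from the annotated 5′ end with upstream negative, against pooled signal in the authors' units on a log axis, coloured by complex. The 6 summits above 1000 lie between 135 and 301 bp upstream, and the weaker ones reach from 801 bp upstream to 150 bp downstream.

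For 12 of the 24 bound members (50%) the strongest summit also lay in the promoter window of another protein-coding gene, as it did for 52.3% of all bound genes. In each of the 12 at least 1 of these partners was on the opposite strand. The partners of complex I members were nars-1, for an aminoacyl-tRNA synthetase, at nduf-6, the ribosomal protein gene rpl-36.A at nuo-1, the dynein light chain gene dlc-1 at nduf-2.2, and the GTPase gene arl-8 at nuo-3, whose 5′ end is 627 bp away. The summit of nuo-3 was nearest to another gene on the same strand as nuo-3, with its 5′ end 8 bp away. Those of complex V were mcrs-1 at atp-1, F27C1.2 at atp-3, lmtr-3 at atp-5, mrps-15 at asg-1, and C34E10.10 and C34E10.12 at atp-2. In complex III ddx-15, a helicase gene, shared the summit of ucr-1. Of the 6 strongest members, mev-1 alone shared its summit. The member was the nearest gene for 18 of 24 strongest summits (75%), and for 72.9% over all bound genes.

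Many C. elegans genes lie close behind another on the same strand, and some such clusters are operons, in which a promoter before the first gene serves those behind it. No operon annotation was used here, so close spacing, a gap of at most 500 bp to the upstream gene, stands in its place. Of the 17 members so placed 6 were bound (35.3%), and of the other 34 members 18 were bound (52.9%). For all genes the shares were 7.58% and 8.31%. Among the 11 unbound members behind a close neighbour, the first gene of the run was bound in 6. At nuo-4 the first gene was syf-2, a splicing factor gene with a signal of 2448. At ucr-11 it was dad-1 (268), at cox-15 the proteasome gene rpn-9 (266), at cox-11 lin-54 (215), at cox-18 Y55F3AR.2 (183), and at nuo-5 Y45G12B.2 (97.2). Among all unbound genes placed in this way, the first gene was bound for 504 of 3341 (15.1%). The count of unbound members therefore includes genes with a bound summit at the start of their run. Whether they are transcribed from there cannot be read from these files.

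The strongest ZTF-18 peaks of other genes share short words, and the strong members were compared with them. In the 100 strongest nuclear peaks outside the members, the most frequent word of 6 bases within 50 bp of the summit was GCGCCA or its reverse complement TGGCGC, in 75, against 3.72% of equally long windows centred 275 bp to the side of each summit. Next were CGCCAG, in 66, GCGCAA, in 59, and GCGTCA, in 58. The word CTGNCGC covers forms of the first, the second and the last of these on both strands, but not of GCGCAA. It was chosen after those words were seen, as were its shorter form TGNCGC and the division of peaks at a signal of 1000. The word CTGNCGC lay within 50 bp of the summit in 4 of the 6 members over 1000 (mev-1, cyc-1, ucr-2.2 and sdha-1) and in 148 of 191 other peaks over 1000 (77.5%). The 100 peaks that gave the words are among these 191, and 81 of the 100 hold CTGNCGC. The shares of other peaks over 1000 are therefore not independent of the choice of either word. In members at or under 1000 it lay in 1 of 18, cox-6A, and in other such peaks in 158 of 2230 (7.09%). It was present in 1.92% of all promoters, read in windows of the same length centred 200 bp upstream. At mev-1 the matches were centred 9 bp before and 21 bp after the summit, and at sdha-1 17 bp from it. The cyc-1 matches were on opposite strands, centred 7 and 25 bp from the summit.

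The shorter word TGNCGC, which every CTGNCGC contains, was present in all 6 members over 1000, nduf-11 and nuo-2 included, and in 5 of 18 members at or under it. The shares of other peaks were 91.6% and 23.9%, and that of all promoters 7.47%. In both signal classes the members' counts lie near the shares of other peaks of like signal. Over the whole promoter window, CTGNCGC was found in 11 of 24 bound members, in 4 of 27 unbound members (14.8%) and in 17.5% of all genes. The shorter word TGNCGC was found in 23 of 24 bound members, 20 of 27 unbound members (74.1%) and 57.5% of all genes. A match is a description of the letters, not a proven site, and the summit of cyc-2.1, with a G and C content of 26.7%, holds neither word.

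**Figure D4:**
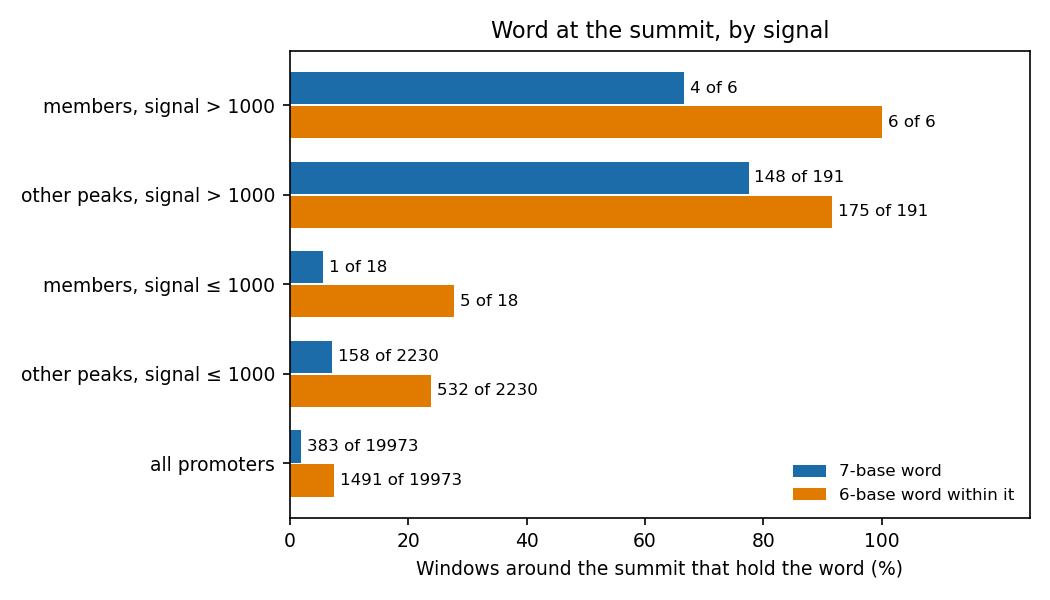
Share of windows, 50 bp to either side of the summit, that hold CTGNCGC (blue, the word of 7 bases) or TGNCGC (orange, the 6 bases within it) on either strand, for members and other peaks divided at a signal of 1000, and for all promoters in a window centred 200 bp upstream. In members over 1000 the counts are 4 and 6 of 6, in members at or under 1000 they are 1 and 5 of 18.

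Other mitochondrial and energy genes were counted with the same rule. Of 23 genes of the citric acid cycle and pyruvate dehydrogenase, 9 were bound (39.1%), led by the aconitase gene aco-2 (2744) and the isocitrate dehydrogenase gene idhb-1 (1287). Chain subunit genes known by other symbols were bound at 2 of the 8 found, T27E9.2 (455) and Y69A2AR.18 (147). Genes for assembly or related steps with other symbols were bound at 3 of 12, with mma-1 (224) and coa-7 (177) strongest. Ubiquinone synthesis genes were bound at 0 of 8. Import genes were bound at 4 of 14, led by ddp-1 (5643) and tomm-20 (3852), which encodes an outer membrane receptor. Genes of inner membrane carriers and dynamics were bound at 4 of 15, led by the cristae gene immt-1 (1184) and the ADP/ATP carrier gene ant-1.1 (455), which has the same summit as T27E9.2. Of 5 genes of mitochondrial DNA upkeep 1 was bound, mtss-1 (183). Mitochondrial ribosomal protein genes were bound at 17 of 70 (24.3%), led by mrpl-12 (3741) and mrps-28 (351). In the cytosol, glycolysis genes were bound at 6 of 19 (31.6%), but their strongest signals, at hxk-2 (172) and aldo-2 (133), were low.

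**Figure D5:**
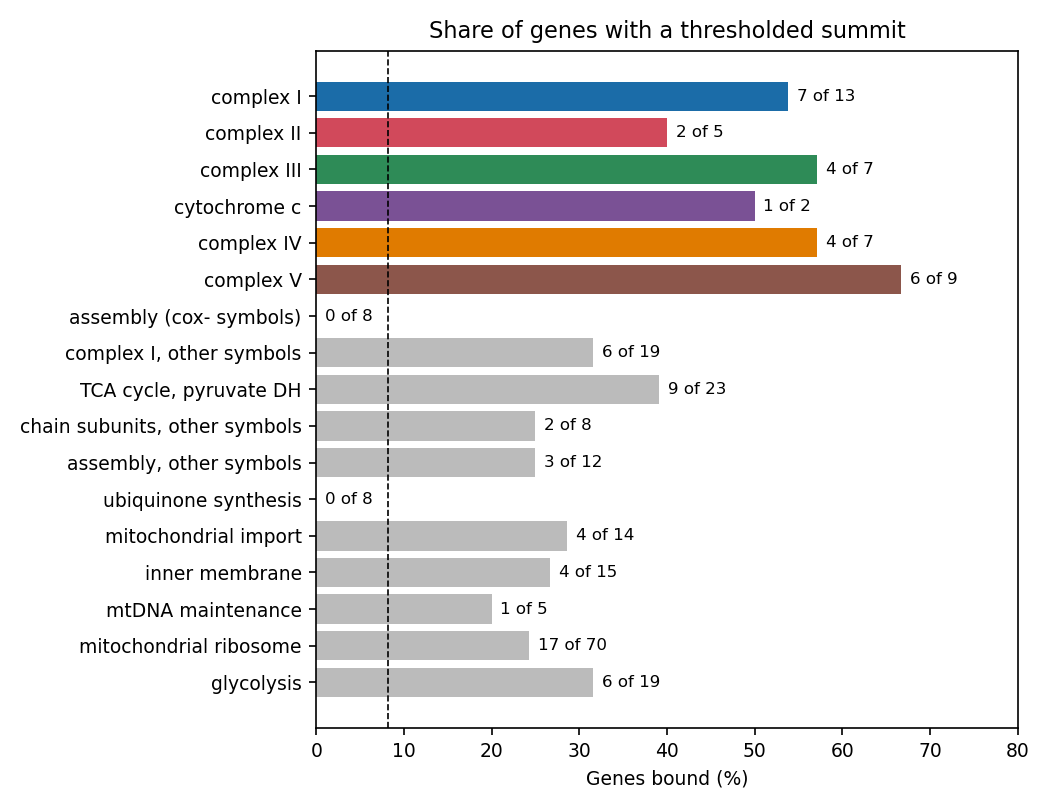
Share of genes with a thresholded summit in the promoter window, in percent, for each respiratory complex and the assembly genes (coloured) and for the other lists (grey), with the counts beside each bar. The dashed line is the share over all protein-coding genes, 8.18%, and every bar but those of the assembly genes with cox- symbols and of ubiquinone synthesis passes it.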

How the data were processed

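Chromatin immunoprecipitation sequencing peak lists from 2 replicates of 1 group were used, on ce11. The authors deposited them in narrowPeak format, per the file headers and labels. How reads were aligned and peaks called, filtered and thresholded is not given in the sources used here. Each peak has a signal that the authors deposited, on an unstated scale, and a −log10 q-value that the authors deposited. That q had the same value of 2.78 throughout the thresholded list, and ranks therefore follow signal. No count of reads was used, and depth is unknown.

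Summits were placed on the gene models of annotation release 115 for WBcel235, from the 5′ end of each gene to the window given above. Many transcripts are trans-spliced, so the annotated 5′ end can lie downstream of the transcription start. A summit inside the windows of several genes was given to each. Replicate summits and ranks came from the relaxed list of each replicate. Each is the strongest summit in the window, so its position can differ between replicates and from the pooled summit. The members, the other gene lists and the words were chosen with earlier results of these data known. All bound members are named, with values per replicate for the 2 strongest of each complex and for the 5 without a top peak of both replicates. Unbound members are named with their relaxed signal, and from each other list the 2 strongest. No list received a test. The placement of summits was tested on simulated peaks. Python 3.11.15, numpy 2.4.6, pandas 2.3.3 and matplotlib 3.10.9 were used. Alternatives covered stricter and relaxed lists, single replicates, other windows and other assignments.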

Additional observations from a re-analysis of the deposited data

Results flagged for a closer look

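The thresholded list held 16 peaks on mitochondrial DNA, which encodes the other subunits of the respiratory chain. These peaks count among the 2465 and take ranks there, so some are in the upper 250 peaks, but they enter no count of bound genes. Their signals ran from 511 to 5957 with a median of 1904, and their ranks from 5 to 298 of 2465. No control was analysed here, and their source was not tested.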

How the results depend on the processing

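No paired analysis was possible because there was 1 group. The members bound numbered 21 to 23 when either replicate was left out (all genes 7.82% to 7.85%), 18 with top summits of both replicates (5.97%), 20 with the 500 bp window (6.42%) and 26 with a window reaching 2000 bp upstream (10.6%). They numbered 16 in the stronger part of the list by signal (4.28%), 6 in the upper 250 peaks (1.46%) and 46 in the relaxed list (39.0%). Bound in all 14 settings were 6 members, cyc-1, mev-1, nduf-11, nuo-2, sdha-1 and ucr-2.2. Gained were cox-6B with every transcript 5′ end, sdhd-1 without replicate 1, and ucr-11 and cox-10 with the longer window. Lost were atp-2 and asg-1 without replicate 1, nuo-3, ucr-1 and asb-2 without replicate 2, nduf-2.2, nduf-9, cox-6A and cyc-2.1 with the 500 bp window, and nduf-2.2, ucr-2.1, nuo-3, atp-5 and asg-1 with the nearest 5′ end only. In the stronger part complex I had 4 bound and complex V 2, with medians of 372 for signal and −217.5 bp for position. In the upper 250 peaks complexes I and III had 2 each, and cytochrome c and complexes IV and V 0, with medians of 2466 and −198 bp. The relaxed list gave 12 for complex I, 5 for II, 7 for IV and 6 for assembly, with a median signal of 97.9. Complex I had 13 with the ndua-, ndub-, nduc-, ndus- and nduv- genes added. Complex V fell to 3 where a top peak or top summit of both replicates was required, with median signals of 272 and 299. Cytochrome c fell to 0 with a window of 500 bp upstream to 100 downstream, where the median signal was 206. With the 2000 bp window assembly had 1 and the median position was −236.5 bp. The median signal was 268 with every transcript 5′ end and 272 with the nearest 5′ end. Bound members with the word at the summit numbered 11 for TGNCGC, against 5 for CTGNCGC. For the other lists 85 values stayed within 1.5 times and 32 did not. The causes of these changes were not tested. Depth is unknown, so a summit absent from the relaxed list is not shown to be unbound.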

Other observations

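Bound members were spread over all nuclear chromosomes. They numbered 8 of 15 on chromosome I, where 12.2% of all genes were bound, 7 of 13 on chromosome III (12.9%), 4 of 6 on X (5.53%), 2 of 6 on II (7.89%), 2 of 6 on IV (7.38%) and 1 of 5 on V (5.57%). The counts per chromosome are small and were not tested.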
